A study of Homo sapiens with 14 samples.

Results

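Oxidative phosphorylation in the HEK-293T and Jurkat lines and their mixtures was followed through 104 protein-coding genes, of 58440 genes in the files. They were chosen by GENCODE symbol alone, as the subunits of complexes I to V and cytochrome c. Of the 104 genes, 13 are encoded by mitochondrial DNA and 91 by nuclear chromosomes, and all 104 were found in the files. HEK-293T cells derive from human embryonic kidney and Jurkat cells from a human T cell leukemia. The study mixed suspensions of both lines at set percentages and sequenced the mRNA, with synthetic ERCC spike-in RNAs added to the captured mRNA. The 14 libraries stood for 7 conditions, which were pure HEK-293T (100% HEK), pure Jurkat (0% HEK) and mixtures with 80%, 60%, 50%, 40% and 20% HEK cells, the rest being Jurkat, each of 1000000 cells. HEK-293T came from ATCC and was kept in DMEM, Jurkat was kept in RPMI, and no cell received a treatment. The 2 libraries of a condition are called technical replicates in the records, so p-values measure only the spread between such libraries.

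The respiratory chain lies in the inner membrane of mitochondria. Complex I takes electrons from NADH and complex II takes them from succinate. Complex III passes them to cytochrome c, and complex IV hands them to oxygen. Complexes I, III and IV pump protons, and complex V, the ATP synthase, uses the returning protons to make ATP. Complexes I, III, IV and V are built from subunits of both genomes, whereas complex II and cytochrome c are wholly nuclear encoded. Mitochondrial genes are transcribed from both strands of a circular genome as long precursors that are cut into single RNAs, and the nuclear genes have promoters of their own.

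The 13 mitochondrial genes sit tightly on chrM of GRCh38 and partly overlap. MT-ATP8 (chrM:8366-8572) and MT-ATP6 (chrM:8527-9207), both of complex V, share 46 bases on the same strand. MT-ATP6 and MT-CO3 share 1 base. MT-ND4L (chrM:10470-10766) and MT-ND4 (chrM:10760-12137), both of complex I, share 7 bases. MT-ND6 (chrM:14149-14673) is the only one of the 13 on the minus strand. The shared bases are printed in capitals within their surroundings, chrM:8515-8584 and chrM:10748-10778 on the plus strand.
MT-ATP8 and MT-ATP6: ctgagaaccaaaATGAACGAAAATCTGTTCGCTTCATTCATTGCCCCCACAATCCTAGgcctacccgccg
MT-ND4L and MT-ND4: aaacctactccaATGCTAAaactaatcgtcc
Only reads that lie wholly within the capitals fit both genes of a pair, and the authors' counting program divides such reads between them. The reads as sequenced were longer than the 7 shared bases and little shorter than the 46. None could thus be shared by MT-ND4L and MT-ND4, and few by MT-ATP8 and MT-ATP6. Nuclear copies on chromosome 1 matched MT-ND1, MT-ND2, MT-CO1, MT-CO2, MT-CO3, MT-ATP6 and MT-ATP8 at 97.6% to 98.7% of aligned bases, so reads could also be shared with these copies. The levels of some of these copies are given below.

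Promoters of 4 nuclear members are shown as examples of the motifs known from such genes, and they include the member with the largest fold change between the lines. Of the 91 nuclear members, 71 had a RefSeq promoter (GRCh38.p14), which runs from 250 bases before to 50 after the start of the gene. Both strands were searched for 3 sequences chosen after the expression values were seen, GCGCA and GCGC with any 1 base between them for the factor NRF1, CCGGAAGT for GABP and other ETS factors, and AAGATGGC for YY1. The capitals mark the matches, each promoter is written along its gene's strand, and the NDUFA1 promoter held none of the 3.
SDHA, complex II, chr5:218070-218369, plus strand, NRF1 sequence: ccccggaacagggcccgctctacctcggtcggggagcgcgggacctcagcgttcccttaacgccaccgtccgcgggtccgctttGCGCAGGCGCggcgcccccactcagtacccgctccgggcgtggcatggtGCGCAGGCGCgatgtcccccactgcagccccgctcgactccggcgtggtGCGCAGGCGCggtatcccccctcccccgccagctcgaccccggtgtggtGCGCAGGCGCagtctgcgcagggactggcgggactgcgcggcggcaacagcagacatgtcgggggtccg
UQCRC1, complex III, chr3:48609597-48609896, minus strand, NRF1 and YY1 sequences: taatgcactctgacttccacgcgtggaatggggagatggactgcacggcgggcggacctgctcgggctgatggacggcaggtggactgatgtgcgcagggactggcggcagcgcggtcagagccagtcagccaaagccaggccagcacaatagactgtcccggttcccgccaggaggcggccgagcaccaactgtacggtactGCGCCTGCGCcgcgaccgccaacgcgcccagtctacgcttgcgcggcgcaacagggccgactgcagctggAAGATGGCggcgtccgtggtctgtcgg
UQCRQ, complex III, chr5:132866392-132866691, plus strand, ETS sequence: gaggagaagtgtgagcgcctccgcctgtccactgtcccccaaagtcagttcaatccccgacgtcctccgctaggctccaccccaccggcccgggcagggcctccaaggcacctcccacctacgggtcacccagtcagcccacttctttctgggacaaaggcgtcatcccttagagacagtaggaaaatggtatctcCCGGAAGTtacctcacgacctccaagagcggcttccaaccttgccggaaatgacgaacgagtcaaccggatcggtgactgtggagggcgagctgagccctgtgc
NDUFA1, complex I, chrX:119871582-119871881, plus strand, no match: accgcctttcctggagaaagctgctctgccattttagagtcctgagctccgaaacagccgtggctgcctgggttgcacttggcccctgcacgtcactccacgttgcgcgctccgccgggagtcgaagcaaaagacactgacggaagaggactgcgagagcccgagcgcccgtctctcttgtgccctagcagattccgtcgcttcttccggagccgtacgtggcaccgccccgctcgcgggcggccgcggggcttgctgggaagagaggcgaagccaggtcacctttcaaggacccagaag
The NRF1 sequence was in 17 of the 71 member promoters (23.9%) and in 6.28% of the 27305 promoters of the table. The ETS sequence was in 10 (14.1%) against 4.44%, and the YY1 sequence in 11 (15.5%) against 3.03%. At least 1 of the 3 was found in 32 member promoters (45.1%) and in 12.5% of all. These shares describe letters only, the promoters compared were not matched on base composition, and no binding was measured.

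The libraries held from 4468822 to 28303668 gene counts, and the 2 pure Jurkat libraries were the shallowest. A limit of 3 counts stood for 0.106 to 0.671 CPM, the counts of a gene scaled to a library total of 1000000 gene counts. All 8 T cell markers were higher in pure Jurkat, and their summed level ran from 13.9 to 17.0 CPM in pure HEK and from 2835 to 3203 CPM in pure Jurkat. Of 8 HEK-293T markers, 7 were higher in pure HEK and the other, CTNNA1, was not called. The names of the files put 6 libraries, both pure HEK libraries among them, in one group (group 2) and 8 libraries, both pure Jurkat libraries among them, in another (group 1). For the pure lines, a difference between cells and one between these file-name groups cannot be told apart.

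The mitochondrially encoded subunits took a larger share of the library in HEK-293T than in Jurkat. Their share of gene counts was 4.66% and 4.70% for pure HEK, against 2.37% and 3.53% for pure Jurkat. No 95% Wilson interval of such a share was wider than 0.029 percentage points, which covers counting error only. The mean was 4.68% ± 0.0324 (SD, n = 2) in HEK and 2.95% ± 0.820 (SD, n = 2) in Jurkat, and the groups did not overlap. The 91 nuclear subunits together took 1.47% and 1.59% in HEK and 0.929% and 0.962% in Jurkat. Again both HEK libraries lay above both Jurkat libraries.

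The balance of the genomes, with every subunit summed, did not separate the lines. The ratio of summed mitochondrially to summed nuclear encoded CPM was 3.17 and 2.96 in pure HEK and 2.55 and 3.67 in pure Jurkat. The Jurkat libraries lay on either side of the HEK libraries. MT-CO1 alone made up 2242 of 23683 summed mitochondrial CPM in the first pure Jurkat library and 10456 of 35281 in the second. A ratio without MT-CO1 was not taken, so the overlap of the lines holds only for sums that include this gene. In the mixtures the ratio ran from 2.46 at 50% HEK to 4.17 at 40% HEK, a wider span than between the pure lines. Per transcript length, in TPM, which scales length-corrected values to 1000000 a library, the median mitochondrial gene stood at 3289 in HEK and 2051 in Jurkat, and the median nuclear member at 184 and 115.

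**Figure D1:**
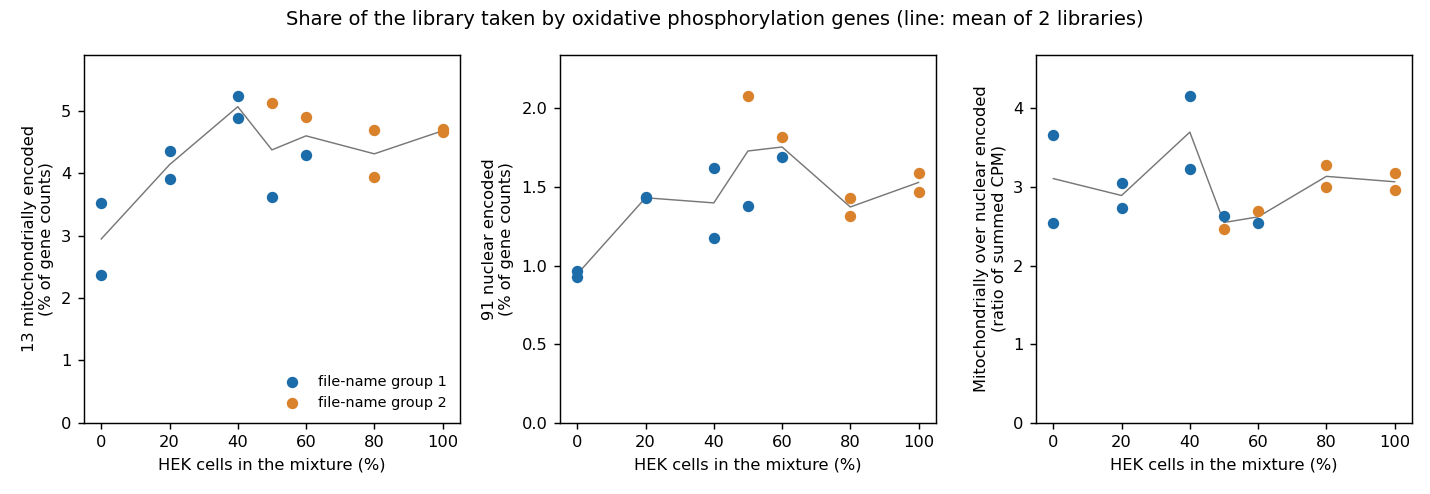
Share of gene counts taken by the 13 mitochondrially encoded genes (left) and the 91 nuclear encoded genes (middle), and the ratio of their summed CPM (right), against the percentage of HEK cells; points are libraries coloured by file-name group and lines join the means of 2 libraries. Both shares were lowest in the pure Jurkat libraries (2.37% and 3.53%, 0.929% and 0.962%), while the ratio of the pure lines, with MT-CO1 included, overlapped.

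In the test of single genes, 6 of the 13 mitochondrial subunits were higher in pure HEK and none was higher in pure Jurkat (edgeR, adjusted p below 0.05). Of all 15794 genes tested, 43.2% were called, 24.2% higher in HEK and 19.0% higher in Jurkat. At an unadjusted p below 0.05 the mitochondrial counts were again 6 and 0, and DESeq2 also called 6 and 0. The median log2 fold change of the 13 genes was 0.40, beside 0.07 over all genes tested. Without the first pure Jurkat library these medians were 0.29 and 0.15. The calls rested on few libraries. Without the first or the second pure HEK library, 1 and 0 mitochondrial genes were called higher in HEK, and without the first or the second pure Jurkat library 2 and 4 were.

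The 6 genes called came from 4 complexes. MT-CO3, a core subunit of complex IV, measured 7887 and 9045 CPM in HEK and 2996 and 3292 CPM in Jurkat. This was the largest fold change of the 13, at 1.20 on the log2 scale (SE 0.21, adjusted p = 0.0101). MT-CYB, the cytochrome b of complex III, measured 4052 and 3572 CPM in HEK and 1733 and 1919 CPM in Jurkat (log2 fold change 0.83, adjusted p = 0.0267). MT-ATP6, part of the proton channel of complex V, measured 8241 and 8452 CPM in HEK against 3376 and 4059 CPM in Jurkat (log2 fold change 0.94, adjusted p = 0.0217). In all 3 genes both HEK libraries lay far above both Jurkat libraries. The other calls were MT-ND4, MT-ND1 and MT-ND3 of the membrane arm of complex I. MT-ND4 measured 4518 and 4480 CPM in HEK and 1931 and 2082 CPM in Jurkat (log2 fold change 0.94, adjusted p = 0.0166). MT-ND1 was at 3345 and 3205 CPM in HEK and at 1623 and 1596 CPM in Jurkat (log2 fold change 0.80, adjusted p = 0.0248). MT-ND3 was at 3293 and 3295 CPM in HEK and at 1751 and 1745 CPM in Jurkat (log2 fold change 0.69, adjusted p = 0.0377). MTATP6P1, the nuclear copy of MT-ATP6, was at 790 and 666 CPM in HEK and at 410 and 513 CPM in Jurkat. MTND1P23, a nuclear copy of part of MT-ND1, was at 189 and 261 CPM in HEK and at 52.8 and 207 CPM in Jurkat.

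The other 7 mitochondrial genes were not called. MT-ND2 (log2 difference 0.32), MT-ND4L (0.19) and MT-CO2 (0.40) had both HEK libraries above both Jurkat libraries in CPM without passing the test. MT-ND5 (-0.38) and MT-ND6 (0.02) overlapped between the lines. Together 9 of the 13 genes had HEK above Jurkat with no overlap and none the reverse, where 47.2% and 27.6% of all genes tested did so.

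MT-CO1 and MT-ATP8 differed more between libraries of one condition than any fold above. MT-CO1, the catalytic subunit of complex IV, measured 2774 and 3061 CPM in HEK, but 2242 and 10456 CPM in the 2 pure Jurkat libraries. Its log2 difference was -1.35 with an SE of 0.71 (adjusted p = 0.178). Without the first Jurkat library it was -2.08 (adjusted p = 0.00752), and without the second 0.17 (adjusted p = 0.575), so 1 library set its direction. MT-ATP8 measured 319 and 563 CPM in HEK and 310 and 974 CPM in Jurkat. In the mixtures it ran from 122 CPM at 50% HEK to 2975 CPM at 40% HEK, while MT-ATP6, with which it shares the capitals printed above, stayed between 6166 and 9599 CPM. MT-ND6 was at 2701 CPM in the first library with 80% HEK and between 966 and 1718 CPM in the other 13. The libraries were made strand-specific, but whether the counting used the strand is not given in the sources used here, and MT-ND6 lies opposite to the plus-strand transcript.

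**Figure D2:**
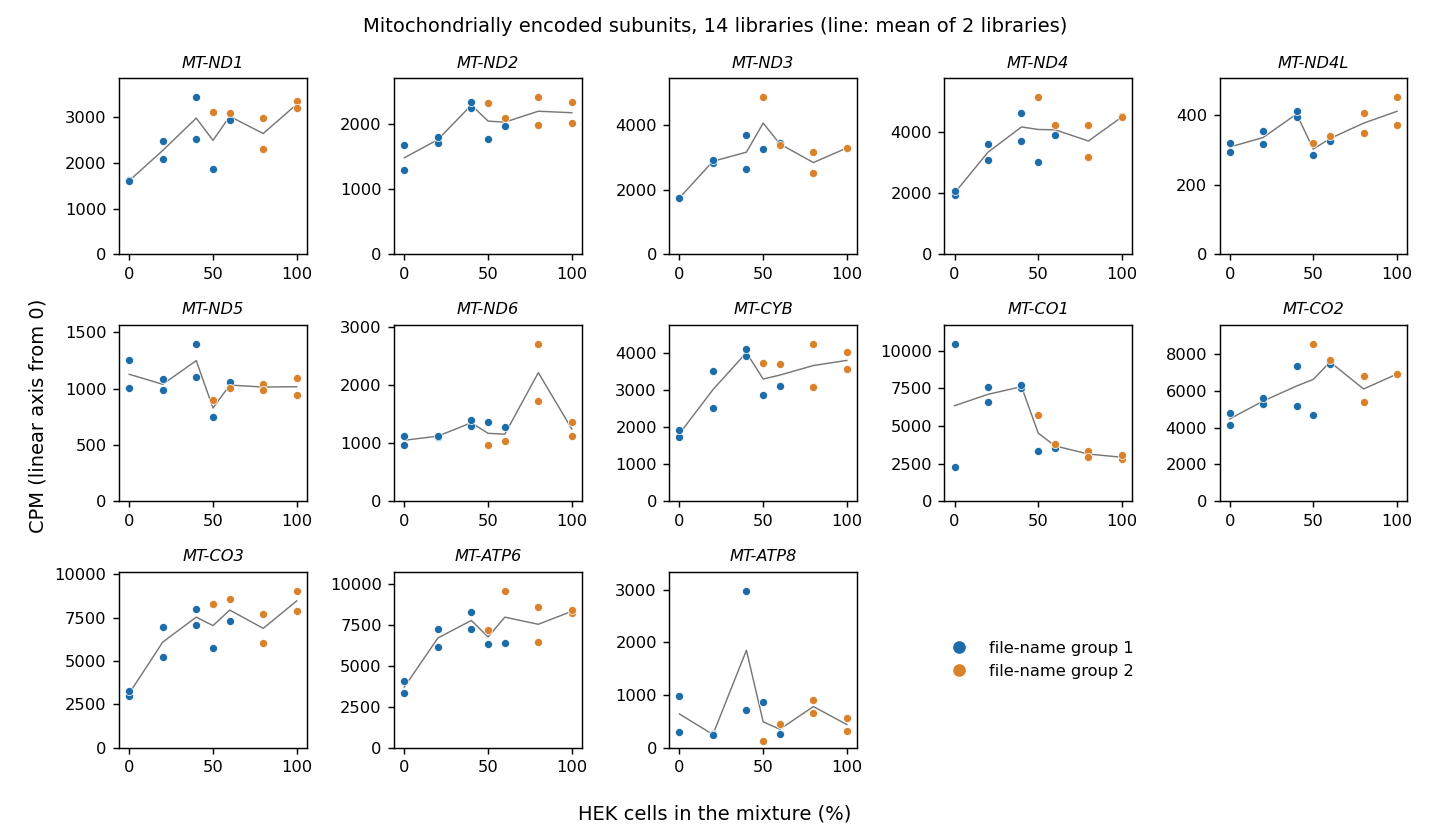
CPM of each mitochondrially encoded gene in the 14 libraries against the percentage of HEK cells; points are libraries coloured by file-name group, lines join the means of 2 libraries, and each panel has its own linear axis from 0. MT-CO3, MT-CYB, MT-ND1, MT-ND3, MT-ND4 and MT-ATP6 were lowest in the pure Jurkat libraries, while MT-CO1 split between 2242 and 10456 CPM there and MT-ATP8 reached 2975 CPM in 1 library with 40% HEK.

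Per transcript length the mitochondrial genes spanned a wide range. In pure HEK, MT-ATP6 (12727 ± 299 TPM, SD, n = 2), MT-CO3 (11128 ± 1139 TPM), MT-CO2 (10509 ± 77.0 TPM) and MT-ND3 (10504 ± 64.1 TPM) were highest. MT-CO2 and MT-ND3 differed by less than their SD, as did MT-CO3 from both. MT-ND1, MT-CYB and MT-ND4 followed at 3496, 3385 and 3289 TPM, and MT-ND5 was lowest at 562 ± 55.8 TPM. In Jurkat, MT-CO2 was highest at 6614 ± 552 TPM and MT-ND5 lowest at 606 ± 86.5 TPM. Of the nuclear members, COX7C, a small subunit of complex IV, was highest in HEK at 2215 ± 141 TPM, above MT-CO1, MT-ND4L and MT-ND5 and within the SD of MT-ND2 (2118 ± 216 TPM).

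Of the 91 nuclear members, 84 had enough counts to be tested, and 35 (41.7%) were higher in HEK and 2 higher in Jurkat, where 24.2% and 19.0% of all genes were. Their median log2 fold change was 0.63, beside 0.07 over all genes. At an unadjusted p below 0.05 the counts were 47 and 3, and DESeq2 called 31 and 0 of 87. Of the 84, 70 had the HEK libraries above the Jurkat libraries without overlap, and 3 had the reverse, where 47.2% and 27.6% of all genes tested did so. Without the first or the second pure HEK library, 7 and 5 were called higher in HEK, and without the first or the second Jurkat library 20 and 25. NDUFA1 and NDUFB8 of complex I, UQCR10 of complex III and COX7A2L were each called in all 4 of these fits. Scaling by library totals alone moved the median of all genes to 0.29 and of the nuclear members to 0.86, with 47 called higher in HEK and none in Jurkat. The distance between both medians was 0.56 with either scaling, which had to be so because scaling shifts all genes nearly alike. Without 1 of the 4 pure libraries the distance ran from 0.42 to 0.60. With library totals, 66.2% of all calls were higher in HEK, against 56.0% with the main scaling.

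**Figure D3:**
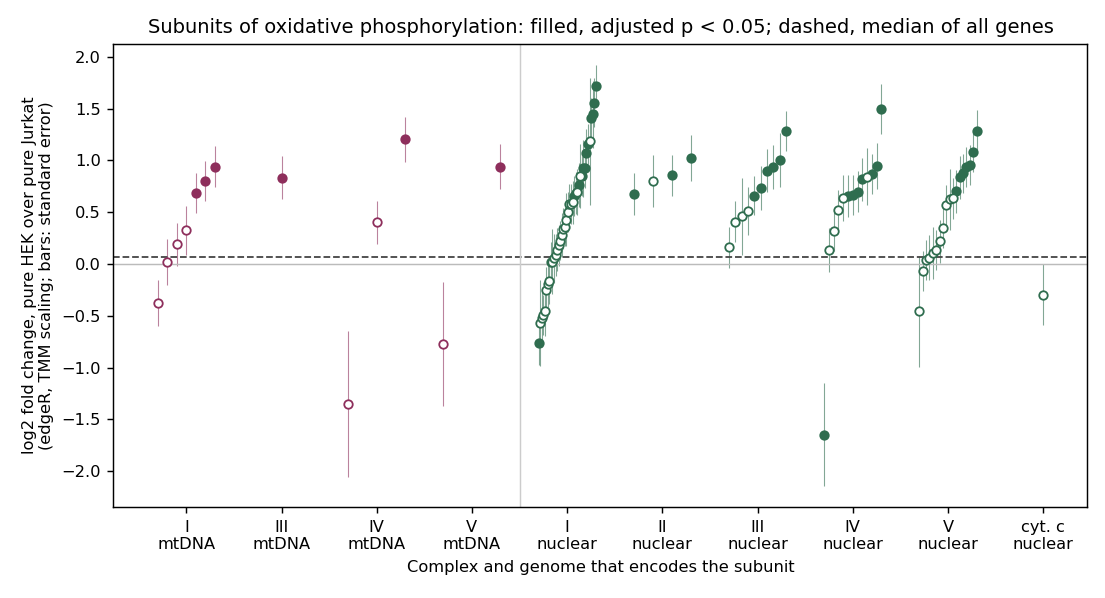
Log2 fold change of pure HEK over pure Jurkat libraries for the 97 members tested, by complex and by the genome that encodes them; bars are standard errors, filled points have an adjusted p below 0.05 and the dashed line is the median of all genes (0.07). All filled points lie above the line except 2 nuclear genes, NDUFV2 in complex I and NDUFA4L2 in complex IV.

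Complex I holds the largest number of members. Of 38 nuclear subunits, all tested, 12 were higher in HEK, 1 was higher in Jurkat and 25 were not called, with a median log2 fold change of 0.47. NDUFA1, an accessory subunit of the membrane arm on chromosome X (chrX:119871832-119876662), measured 133 and 140 CPM in HEK and 37.9 and 33.3 CPM in Jurkat. It had the largest fold change among all members, 1.72 (SE 0.20, adjusted p = 0.00327). NDUFB8, also in the membrane arm (chr10:100523740-100530000), measured 172 and 175 CPM in HEK and 58.4 and 42.5 CPM in Jurkat (log2 fold change 1.56, adjusted p = 0.00656). NDUFV2, a core subunit with an iron-sulfur cluster in the arm that takes up NADH (chr18:9102630-9134345), went the other way. It measured 48.8 and 56.8 CPM in HEK and 79.5 and 74.2 CPM in Jurkat, a log2 fold change of -0.77 (SE 0.21, adjusted p = 0.0339). This call was lost with library totals alone (adjusted p = 0.0853), with no filter, with DESeq2 and when any 1 of the 4 libraries was left out (adjusted p from 0.0598 to 0.256). Of other subunits of that arm, NDUFV1 and NDUFS1 were at 0.70 and -0.19 on the log2 scale and not called. NDUFV3 was higher in HEK (log2 fold change 1.44, adjusted p = 0.0203).

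Complex II had only 4 subunits, which ranged from 0.68 to 1.02 on the log2 scale. Of these, 3 were higher in HEK. All 4 had HEK above Jurkat without overlap, as did 47.2% of all genes tested. SDHC, a membrane anchor (chr1:161314381-161363206), measured 238 and 206 CPM in HEK and 104 and 83.2 CPM in Jurkat (log2 fold change 1.02, adjusted p = 0.0181). SDHA, the flavoprotein that oxidises succinate, measured 68.6 and 67.1 CPM in HEK and 33.1 and 30.9 CPM in Jurkat (log2 fold change 0.86, adjusted p = 0.0214). SDHA has pseudogene copies with which reads may be shared. SDHD, the other anchor, was at 13.0 and 12.0 CPM in HEK and 5.37 and 6.77 CPM in Jurkat and was not called (adjusted p = 0.0530).

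In complex III, 6 of 10 nuclear subunits were higher in HEK and none in Jurkat, with a median of 0.70. UQCR10, a small subunit (chr22:29767369-29770413), measured 239 and 243 CPM in HEK and 83.7 and 85.6 CPM in Jurkat (log2 fold change 1.28, SE 0.19, adjusted p = 0.00638). UQCRQ, another small subunit and owner of the ETS promoter printed above, measured 410 and 494 CPM in HEK against 162 and 224 CPM in Jurkat (log2 fold change 1.00, adjusted p = 0.0308). UQCRH was called (0.66, adjusted p = 0.0414) and its near copy UQCRHL was not (0.51, adjusted p = 0.134). Both share most of their sequence, so the division of reads between them is uncertain.

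Complex IV had 19 nuclear members, of which 13 were tested, 7 were higher in HEK and 1 was higher in Jurkat. COX7A2L, a relative of the COX7A subunits that joins complexes III and IV into supercomplexes (chr2:42333546-42425088), measured 50.1 and 51.6 CPM in HEK and 13.2 and 17.3 CPM in Jurkat (3.33-fold in mean CPM, adjusted p = 0.00768). COX7B, a small subunit on chromosome X, measured 295 and 282 CPM in HEK and 114 and 142 CPM in Jurkat (log2 fold change 0.95, adjusted p = 0.0217). NDUFA4, first assigned to complex I and now placed in complex IV, was higher in HEK (0.82, adjusted p = 0.0277). Its relative NDUFA4L2 was higher in Jurkat but scarce, with 0.741 and 0.924 CPM in HEK and 1.57 and 2.90 CPM in Jurkat (log2 fold change -1.65, SE 0.50, adjusted p = 0.0469). It held 7 to 18 counts in the 4 pure libraries, and its call was lost in every alternative but the one that left mitochondrial genes out of the scaling.

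Several subunits of complex IV exist as isoforms of muscle, lung or testis beside those of most tissues. Both lines used the latter. COX4I1, COX6A1, COX6B1, COX7A2, COX7B and COX8A lay between 310 and 610 TPM in HEK and between 162 and 303 TPM in Jurkat. Of these, COX6A1 (0.66, adjusted p = 0.0488), COX7B and COX8A (0.87, adjusted p = 0.0201) were higher in HEK, and COX4I1 (0.84, adjusted p = 0.0597), COX6B1 (0.52) and COX7A2 (0.32) were not called. COX4I2 of lung and COX6A2 of heart and muscle had 0 counts in all 14 libraries. COX7A1, COX7B2 and COX8C had at most 2 counts in any library, and COX6B2 of testis at most 13.1. The 3-count limit allows up to 0.671 CPM in the shallowest library.

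Complex V had 19 nuclear members, of which 18 were tested. Of these, 7 were higher in HEK, none in Jurkat and 11 were not called, with a median of 0.60. Subunit c, which forms the rotating ring, is encoded by a trio of genes for one mature protein. ATP5MC1 measured 123 and 128 CPM in HEK and 43.6 and 44.4 CPM in Jurkat (log2 fold change 1.29, SE 0.20, adjusted p = 0.00650). ATP5MC3 measured 271 and 265 CPM in HEK and 123 and 127 CPM in Jurkat (0.87, adjusted p = 0.0186). ATP5MC2, at 244 and 226 against 123 and 135 CPM, did not pass (0.64, adjusted p = 0.0514). ATP5PB of the peripheral stalk measured 181 and 161 CPM in HEK and 68.5 and 69.0 CPM in Jurkat (1.08, adjusted p = 0.0110). ATP5F1B (0.22), the catalytic beta subunit, and ATP5F1A (0.04), the alpha subunit beside it, were among those not called. CYCS, cytochrome c itself, measured 249 and 202 CPM in HEK and 184 and 289 CPM in Jurkat. The lines overlapped, and the log2 difference was -0.30 (adjusted p = 0.455).

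The ERCC spike-ins give another quantity, counts per spike-in count, at equal numbers of cells. There were 122 ± 35.4 gene counts for each spike-in count in pure HEK and 12.2 ± 0.174 in pure Jurkat (SD, n = 2). On this scale the median of all genes shifted to 3.61, and 95.8% of genes were called, 92.5% higher in HEK and 3.22% higher in Jurkat. All 13 mitochondrial and all 84 tested nuclear members were among them, with medians of 3.95 and 4.17. Summed over genes, mitochondrial subunits had 5725 ± 1620 counts per 1000 spike-in counts in HEK and 360 ± 105 in Jurkat, and nuclear subunits 1856 ± 437 and 115 ± 4.50 (SD, n = 2). Less RNA per cell and fewer cells of a line cannot be told apart in such bulk libraries.

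The mixtures offered libraries that the comparison of the pure lines had not used. A linear term for the percentage of HEK cells was fitted over the 10 mixed libraries, scaled to the change from 20% to 80% HEK. Only 2 members passed, and both fell with the share of HEK cells. No member rose. Of all 17242 genes tested, 5.61% were called, 0.528% rising and 5.08% falling. At an unadjusted p below 0.05, 1 mitochondrial gene rose and 1 fell, and 0 nuclear members rose and 3 fell. DESeq2 called 0 rising members and 3 falling, MT-CO1, COX6C and NDUFV2. The share of the RNA that came from HEK cells, fitted over genes that are not members, was already 66.8% and 67.7% at 20% HEK, and reached 98.2% in 1 library at 50%. All 8 T cell markers fell and 1 of the 8 HEK-293T markers rose.

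The 2 genes that passed were both subunits of complex IV. MT-CO1 was at 7599 and 6619 CPM at 20% HEK and at 7498 and 7737 CPM at 40%. It was at 3333 and 5710 CPM at 50%, at 3793 and 3558 CPM at 60%, and at 3305 and 2960 CPM at 80% HEK. Every library at 20% and 40% HEK lay above every other mixed library. The log2 change from 20% to 80% HEK was -1.47 (SE 0.32, adjusted p = 0.0139). COX6C, a nuclear encoded subunit (chr8:99873200-99893707), was at 829 and 635 CPM at 20% HEK and between 258 and 382 CPM in the other 8 mixed libraries. Pure HEK had 284 and 329 CPM and pure Jurkat 262 and 216 CPM, so both libraries at 20% HEK were above all pure libraries. Its log2 change was -1.35 (SE 0.29, adjusted p = 0.0150). All 4 libraries at 20% and 40% HEK were in the file-name group of 8. With that group as a covariate, the adjusted p was 0.156 for MT-CO1 and 0.0728 for COX6C, with log2 changes of -1.48 and -1.68. Within the group of 8 alone the changes were -1.61 (adjusted p = 0.461) and -2.16 (adjusted p = 0.145), and within the group of 6 they were -1.13 and -0.48. COX6C was also not called without the first or the second library at 20% HEK (adjusted p = 0.169 and 0.0760). Without the second library at 80% HEK neither gene passed, and MT-CO1 did not pass without the first library at 20%.

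**Figure D4:**
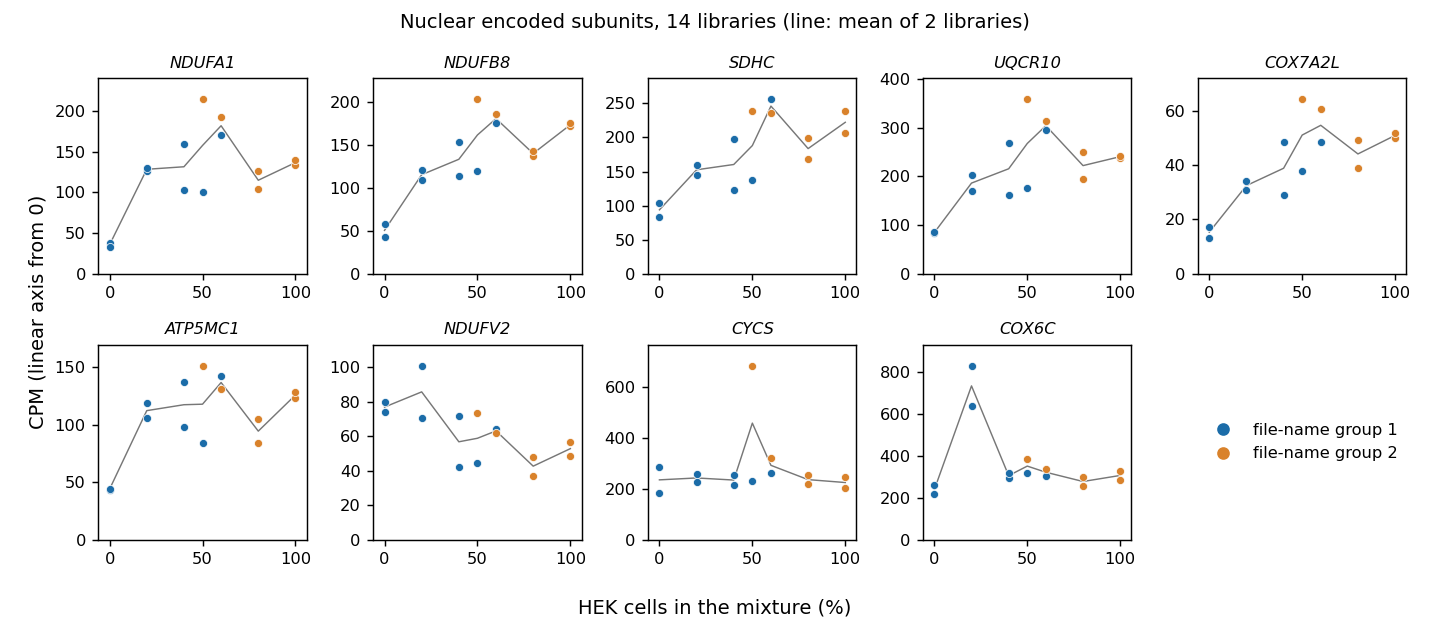
CPM of 9 nuclear encoded members in the 14 libraries against the percentage of HEK cells; points are libraries coloured by file-name group, lines join the means of 2 libraries, and each panel has its own linear axis from 0. NDUFA1, NDUFB8, UQCR10, COX7A2L and ATP5MC1 were lowest in the pure Jurkat libraries, COX6C was highest at 20% HEK (829 and 635 CPM), and CYCS reached 686 CPM in 1 library with 50% HEK.

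Mixed libraries were then compared with the level expected from the pure means and the fitted HEK share of RNA. Nuclear members were above this level in some mixed libraries and below it in others. Their median log2 ratio of observed to expected CPM was 0.49 in the second library at 50% HEK, 0.33 and 0.23 in the libraries at 60%, and 0.24 in the second library at 40%. The medians over all genes in these 4 libraries were 0.14, 0.09, 0.01 and 0.05. The nuclear median was -0.24 in the first library at 40%, -0.18 in the first at 50% and -0.16 in the first at 80%. There the medians over all genes were -0.19, -0.19 and -0.13, so the nuclear members lay close to all genes in those libraries. The 2 libraries of the mixtures at 50% and at 40% HEK lay on opposite sides of 0, for the nuclear members and for all genes alike. In the second library at 50%, 72 of 84 nuclear members exceeded the mean CPM of either pure line, compared with 42.7% of all genes, and 74 of 84 did so in the first library at 60%, compared with 39.9%. In the first library at 50% there were 7 of 84, compared with 17.7% of all genes.

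The mitochondrial medians stayed nearer to 0 than the nuclear ones in the 4 libraries with the highest nuclear medians. In the first libraries at 80%, 50% and 20% HEK they lay farther from 0 (-0.22, -0.27 and -0.21) than the nuclear ones (-0.16, -0.18 and 0.03). The mitochondrial median ratio was -0.01 in the second library at 50% HEK, -0.02 and -0.11 at 60%, and 0.16 in the second library at 40%. In that last library 11 of the 13 exceeded both lines, compared with 33.9% of all genes. In each other mixed library 1 to 5 of the 13 did so. The mitochondrial medians ranged from -0.27 to 0.16 over the 10 libraries, and the difference between the genomes was not tested. One nuclear copy, picked from the 12 with the highest mean CPM after their values were seen, was low where the nuclear medians were high. MTND1P23, a pseudogene copy of part of MT-ND1 on chromosome 1 (chr1:629062-629433), was at 5.50 CPM in the second library at 50% HEK, at 16.4 and 9.40 CPM at 60% and at 19.0 CPM in the second library at 40%. In the other 6 mixed libraries it ran from 76.9 to 502 CPM. The 4 libraries with the highest nuclear medians were thus those with the lowest MTND1P23. They included 2 libraries of each file-name group. What bearing MTND1P23 has on the nuclear medians was not tested.

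**Figure D5:**
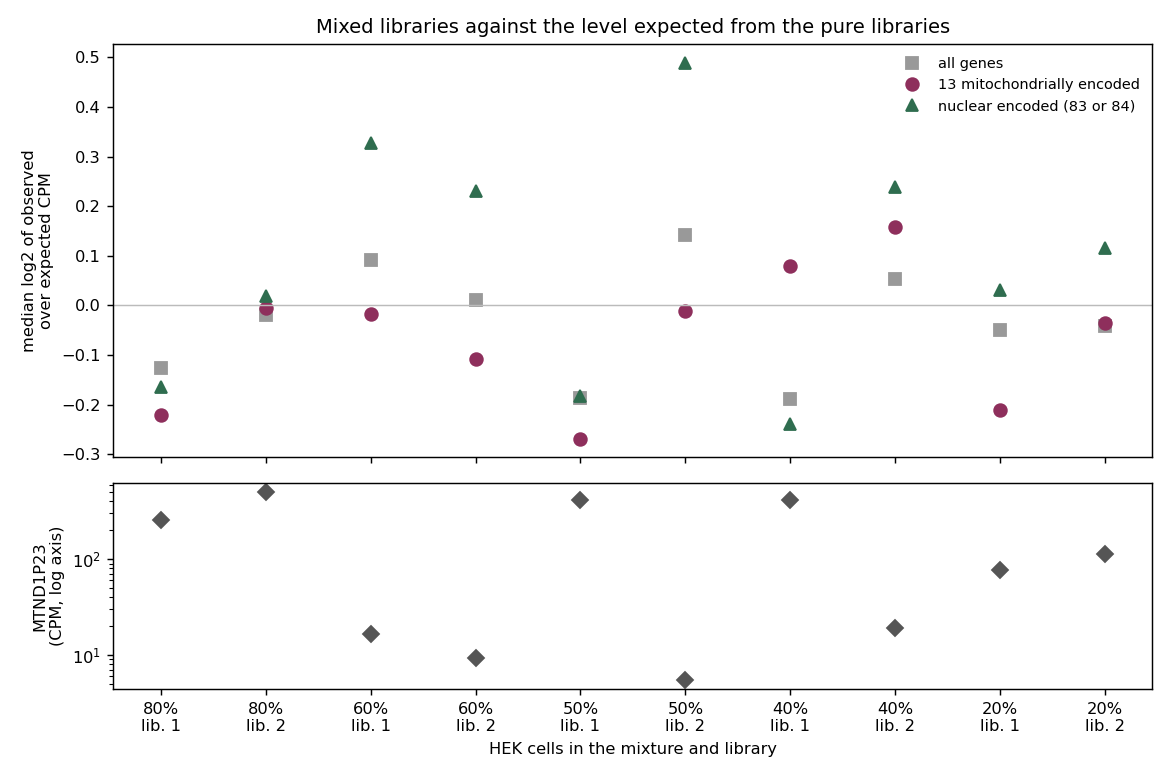
Upper panel, median log2 of observed over expected CPM in each mixed library for all genes (squares), the mitochondrially encoded (circles) and the nuclear encoded members (triangles); lower panel, CPM of MTND1P23 on a log axis. Triangles are highest, at 0.23 to 0.49, in the 4 libraries where MTND1P23 was below 20 CPM, while the circles stayed between -0.27 and 0.16.

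Genes that serve oxidative phosphorylation without being subunits were described from fixed lists. Of 32 genes of mitochondrial DNA expression, 8 (25.0%) were higher in HEK and 1 in Jurkat, with a median of 0.02, so the share higher in HEK was near the 24.2% of all genes. LRPPRC, which stabilises mitochondrial mRNA, measured 108 and 116 CPM in HEK and 44.1 and 44.5 CPM in Jurkat (log2 fold change 1.11, adjusted p = 0.0100). POLRMT, the mitochondrial RNA polymerase (0.81, adjusted p = 0.0322), and SSBP1, which binds single-stranded mitochondrial DNA (0.80, adjusted p = 0.0324), were also higher in HEK. MTERF2 (2.67, adjusted p = 0.0226) and FASTK (1.53, adjusted p = 0.0447) had the largest changes upward, MTERF2 from 2.69 and 0.484 CPM in Jurkat. GRSF1, a protein of mitochondrial RNA granules, was higher in Jurkat (-0.83, adjusted p = 0.0272). TFAM, which packages mitochondrial DNA, had HEK above Jurkat (356 and 244 against 212 and 166 CPM) but was not called (adjusted p = 0.241).

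Of 46 tested assembly factors, 9 (19.6%) were higher in HEK, beside 24.2% of all genes, and 1 in Jurkat, with a median of 0.34. COA3, needed for the synthesis of COX1 protein, measured 47.2 and 46.0 CPM in HEK and 3.36 and 4.03 CPM in Jurkat. Its log2 fold change was 3.42 (SE 0.25, adjusted p = 0.000895), larger than that of any subunit. UQCC3, an assembly factor of complex III, measured 32.6 and 37.0 CPM in HEK and 6.30 and 5.18 CPM in Jurkat (2.39, adjusted p = 0.00214). COX18 was higher in Jurkat (-0.77, adjusted p = 0.0331). Of the 10 regulators of mitochondrial biogenesis, 9 were tested and none was called by edgeR, with 1 in each direction at an unadjusted p below 0.05 and 0 called by DESeq2. PPARGC1A, the coactivator PGC-1 alpha, stood at 0.952 CPM or below in the pure libraries and was not tested. Among 13 carriers and channels, 6 (46.2%) were higher in HEK, beside 24.2% of all genes, and none in Jurkat, with a median of 0.69. CKMT1A and CKMT1B, near-identical copies of a mitochondrial creatine kinase gene, were at 34.2 and 35.5 CPM and 38.4 and 33.7 CPM in HEK. In Jurkat CKMT1A was listed at 0 and CKMT1B at 0.895 and 0.806 CPM, and the division of reads between the copies is uncertain.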

How the data were processed

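RNA-seq counts of 14 libraries, 2 for each of 7 mixtures of HEK-293T and Jurkat cells, were analysed. The authors aligned single-end reads with STAR 2.6.1b to GRCh38 joined with the ERCC sequences and deposited RSEM 1.3.1 expected counts, not normalized, and TPM, both per gene. The submitters' annotation release is not given in the sources used here. RSEM divides reads that fit several genes, which can affect overlapping genes and copies. The series table held the same values as the sample files in all 14 columns and was not used. There were 0 unused sample columns.

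Symbols came from GENCODE 44, matched by identifier without version. The members and lists were chosen with earlier results of these data known. CPM were taken over genes without the 92 spike-ins. Expected counts were rounded to whole numbers and tested with edgeR 4.0.16 in R 4.3.3 (glmQLFit and glmQLFTest, TMM, filterByExpr) over all genes, with Benjamini-Hochberg adjustment at 0.05, two-sided. The fits were pure HEK against pure Jurkat, the same with spike-in totals as scaling, and a linear term for the HEK percentage in the 10 mixtures. Fold changes are TMM-scaled, while CPM are over library totals. DESeq2 1.42.0, other scalings, no filter, the file-name group and each library left out were alternatives. Expected levels in mixtures used a HEK share of RNA fitted by weighted least squares over genes that are not members with a mean of at least 1 CPM. Motifs were searched with Biopython 1.88 under Python 3.11.15, numpy 2.4.6 and pandas 2.3.3.

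Genes named were all mitochondrial members, up to 2 nuclear members per complex and direction with the largest called change and no overlap, CYCS, the isoforms and subunit c genes, up to 2 called genes per list and direction, TFAM, POLRMT, LRPPRC, PPARGC1A and SSBP1. Others were named after their values were seen. In a test on simulated counts of 15232 genes shaped like the pure libraries, 50 genes were altered at each fold size. The calls held 14% of the 2-fold set, 82% of the 4-fold set and 100% of the 8-fold and 16-fold sets. Of 159 calls, 11 were false. Between the pure lines 43.2% of all genes were called, far more than were altered here, so these shares need not hold there. With 16976 genes shaped like the mixtures, the shares were 14%, 84%, 100% and 100%, and 9 of 158 calls were false. Some items are not reported here.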

Additional observations from a re-analysis of the deposited data

How the results depend on the processing

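No result on the members changed direction among those past the threshold. In the comparison of the pure lines, the 6 mitochondrial and 35 nuclear genes higher in HEK became 0 to 4 and 5 to 25 when 1 of the 4 libraries was left out, and the 0 and 2 genes higher in Jurkat became 0 to 1 and 0 to 1. A lone library was then assumed to vary like the other group. NDUFV2 and NDUFA4L2 were not among the genes higher in Jurkat in these fits, which were MT-CO1 and NDUFS5. Both of these overlapped between the lines in CPM. The nuclear count higher in Jurkat was 1 with DESeq2's size factors and with all 14 libraries in the fit, and 0 with library totals, with no filter and with DESeq2. The mitochondrial count higher in Jurkat was 1 with no filter and with all 14 libraries. Per spike-in count, 12 to 13 mitochondrial and 82 to 83 nuclear genes stayed higher in HEK without 1 library. In the mixtures, the 1 mitochondrial gene that fell became 0 and the 1 nuclear gene that fell became 0 with the file-name group as covariate, within group 1 and within group 2. With the HEK share of RNA as the mixing term, 0 mitochondrial genes fell and 1 nuclear gene, COX7A2L, rose. COX6C still fell in that fit (log2 change -1.30, edgeR adjusted p = 0.0164). DESeq2 called 2 nuclear genes falling. Without 1 library, 0 to 1 mitochondrial and 0 to 2 nuclear genes fell and 0 to 1 nuclear genes rose. The difference in mitochondrial share of counts, 1.73 percentage points, was 1.15 to 2.31 without 1 library and 2.72 in TPM, and the difference in the ratio of the genomes ran from -0.60 to 0.52. The causes were not tested. Over all genes, the 6827 calls between the pure lines fell to between 3131 and 6227 without 1 library. The 967 calls in the mixtures became 512 with the covariate, 203 and 599 within groups 1 and 2, 1463 with DESeq2 and 572 to 1155 without 1 library. No paired analysis was possible because the labels give no replicate number that the groups share.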

Other observations

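Of 22 noncoding RNAs of mitochondrial DNA tested, 1 was higher in pure HEK and 4 were higher in pure Jurkat, where 24.2% and 19.0% of all genes were. Their median log2 fold change was -0.58, and its difference from that of the 13 subunits was not tested. MT-RNR1, the small ribosomal RNA, measured 2521 and 2046 CPM in HEK and 4518 and 3953 CPM in Jurkat (log2 fold change -1.12, SE 0.22, edgeR adjusted p = 0.0137). MT-RNR2, the large ribosomal RNA, measured 19075 and 15358 CPM in HEK and 12957 and 14430 CPM in Jurkat and was not called (adjusted p = 0.743). The libraries were captured by oligo-dT, so these RNAs were not a target of the method.

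MTCO1P40, a pseudogene copy of MT-CO1 looked at after its values were seen, was higher in every mixed library than in either line. It was at 6.08 and 12.5 CPM in pure HEK and 0.750 and 0.928 CPM in pure Jurkat. In the libraries at 40% HEK it reached 43.4 and 49.8 CPM, and at 20% HEK 36.2 and 30.5 CPM. It was at 32.0 CPM in the second library at 50% HEK and between 12.7 and 16.2 CPM in the other 5 mixed libraries. Reads may be shared between the copy and MT-CO1.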
